A study of Chromochloris zofingiensis with 12 samples.

Results

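In continuous cultures of the green microalga *Chromochloris zofingiensis*, 89 of 15274 genes had lower transcript levels under high irradiance alone and also under low nitrate alone. The members were chosen from the measured values. A gene was a member when its mean log2 level was at least 1 lower both in HL 10 mM and in LL 1 mM than in LL 10 mM, and when every library of both stress conditions lay below every control library. The 25 carotenogenic gene IDs of the study and the 100 genes with the highest mean level in the control were left out. All cultures were wild-type strain CCAP 211/14, kept at a dilution rate of 0.5 per day in a light and dark cycle and sampled 4 h after the light period began. The control, LL 10 mM, received 10 mM nitrate and a maximum irradiance of 300 µE per m2 per s, and HL 10 mM received the same nitrate at 1000 µE per m2 per s. LL 1 mM and HL 1 mM received 1 mM nitrate at 300 and 1000 µE per m2 per s. The stressed conditions are thus high irradiance alone (HL 10 mM), low nitrate alone (LL 1 mM) and both (HL 1 mM). Each condition had 3 stranded libraries, 12 in all, and the mRNA of whole cultures was measured. The cultures were sampled on consecutive days and analysed in triplicate, and the sources do not say whether the 3 libraries are those days, separate reactors or repeats, so that p-values reflect the spread among these libraries alone, which may be technical.

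Nitrate is the nitrogen source of these cultures, and nitrogen is needed for protein, chlorophyll and nucleic acids. Green algae that run short of it generally slow their growth, dismantle part of the photosynthetic apparatus and store carbon as starch and lipid. Strong light is known to make such algae reduce the antenna that feeds light to the photosystems and raise protection against excess energy. Both conditions thus leave more absorbed energy than the cells can use, and in *C. zofingiensis* both are known to favor secondary carotenoids such as astaxanthin. The expression table gives gene IDs without products, so no role is given to any member here, and how many members belong to any of these processes was not analysed.

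The levels are FPKM, the number of fragments relative to transcript length and library size, a unit read from the values. Their sums ranged from 956599 to 1126290 per library, and since the table carries no counts, the depth behind each value is unknown. Of the genes listed, 358 were at 0 in all libraries, and log2(FPKM + 1) of the other 14916 was quantile-normalized, which gives every library the same distribution. Libraries of one condition correlated across genes with a Pearson r of 0.987 to 0.996, and no gene had the same nonzero deposited FPKM in both libraries of any such pair. Normalization bears on these results. Without it the median of all genes lay at 0.31 in LL 1 mM and 0.41 in HL 1 mM against LL 10 mM on the log2 scale, and with it at −0.04 and −0.05. FPKM is relative to the other transcripts of a library, so less of a transcript per cell and more of all other transcripts cannot be told apart.

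The members were mostly well-expressed genes in the control cells, which the rule itself favors. A gene below 1 normalized FPKM in the control cannot fall by 1 on the log2(FPKM + 1) scale. The rule also sets the levels under each single stress low, so these levels are a description. Their normalized level in LL 10 mM had a median of 66.1 FPKM (range 1.16 to 1462), with 34 members above 100 and 11 below 10 FPKM, while the median over all genes was 16.0 FPKM. The median member stood at percentile 86.1 of all genes in LL 10 mM, at 60.02 under high irradiance, 49.7 under low nitrate and 33.4 under both. The HL 1 mM libraries entered the choice of members only through the shared normalization.

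By the rule all members were lower under each single stress, and these differences are given as a description. In HL 10 mM the members retained a median of 38.5% of their control level (quartiles 29.3% and 45.1%), and in LL 1 mM 27.6% (17.1% and 35.5%). The median log2 differences were −1.25 and −1.68, with extremes of −3.93 and −5.14. In a limma model with the 4 conditions, 88 of the 89 members passed an adjusted p of 0.05 together with 2-fold in each of these comparisons, where 1.13% of all genes were called lower in HL 10 mM and 2.94% in LL 1 mM. The exception had 5.76 FPKM in LL 10 mM, 1.55 under high irradiance and 2.21 under low nitrate. Its log2 differences of −1.41 and −1.07 (standard error 0.52 for both) met 2-fold. It fell short of the adjusted p alone (0.108 and 0.113 by limma). Of the 14916 genes, 173 (1.16%) met the HL 10 mM condition of the rule, 452 (3.03%) met the LL 1 mM condition and 95 (0.637%) met both before the exclusions. The comparisons share the LL 10 mM libraries, so nothing is read from the number that met both.

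The edge of the group was not sharp. The member nearest to it had differences of −1.43 in HL 10 mM and −1.001 in LL 1 mM, and 24 members lay within 0.1 of the threshold in one or the other difference. The nearest gene outside had −0.999 and −1.07, and the next −0.993 and −1.22. Another 2 genes had both differences but overlapping libraries. Without quantile normalization the rule found 59 genes, 57 of them among the 89 (64% of the members and 96.6% of the alternative list). Leaving out 1 library at a time gave 73 to 103 genes, the fewest without HL 10 mM replicate 1, which kept 72 of the 89, and the most without LL 10 mM replicate 1, which kept 84.

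Together the members took a smaller share of the deposited FPKM in every stressed library than in any control library. Their share of the summed FPKM was 1.23%, 1.32% and 1.29% in LL 10 mM replicates 1 to 3. In HL 10 mM it was 0.473%, 0.572% and 0.559%. In LL 1 mM it was 0.426%, 0.389% and 0.408%, and in HL 1 mM 0.293%, 0.264% and 0.298%. The 4 conditions did not overlap, and HL 1 mM held the lowest values. The means were 1.28% ± 0.0483 in LL 10 mM, 0.535% ± 0.0535 under high irradiance, 0.408% ± 0.0189 under low nitrate and 0.285% ± 0.0185 under both (SD, n = 3). The rule itself makes the HL 10 mM and LL 1 mM shares low. The shares sum FPKM as deposited, over members that were chosen on quantile-normalized values, and the 5 most abundant members made up 38.2% of the members' sum in LL 10 mM.

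**Figure D1:**
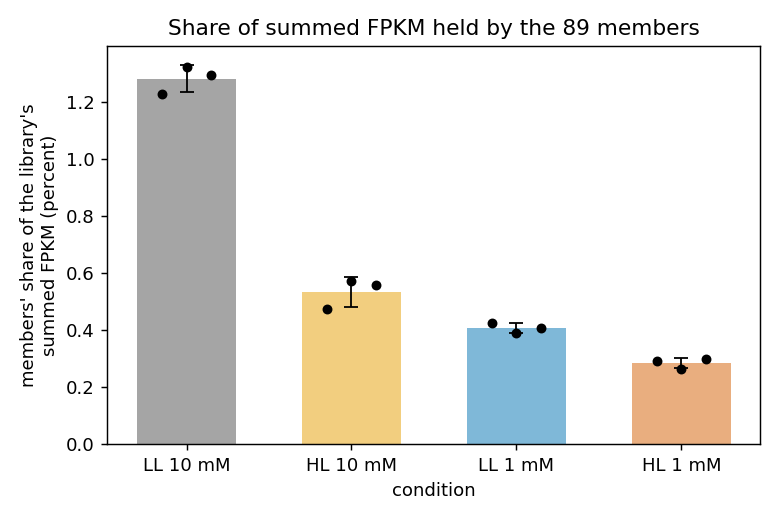
Share of each library's summed deposited FPKM held by the 89 members, in percent (vertical axis), by condition (horizontal axis); bars are means of 3 libraries, error bars 1 SD and points single libraries. The share was 1.23% to 1.32% in LL 10 mM and 0.264% to 0.298% in HL 1 mM.

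The same order appeared in the medians over the members, and in the condition means of 66 of the 89 members. The median difference of the members from their own LL 10 mM mean was −1.52, −1.14 and −1.20 in the 3 HL 10 mM libraries, −1.75, −1.80 and −1.75 in those of LL 1 mM and −2.22, −2.40 and −2.26 in those of HL 1 mM, on the normalized log2 scale. HL 10 mM replicate 1 was thus the lowest of its condition. The median spread between replicates was wider for members than for all genes, with a median SD of 0.20 in LL 10 mM, 0.22 under high irradiance, 0.18 under low nitrate and 0.17 under both, against 0.12, 0.12, 0.11 and 0.10 over all genes.

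**Figure D2:**
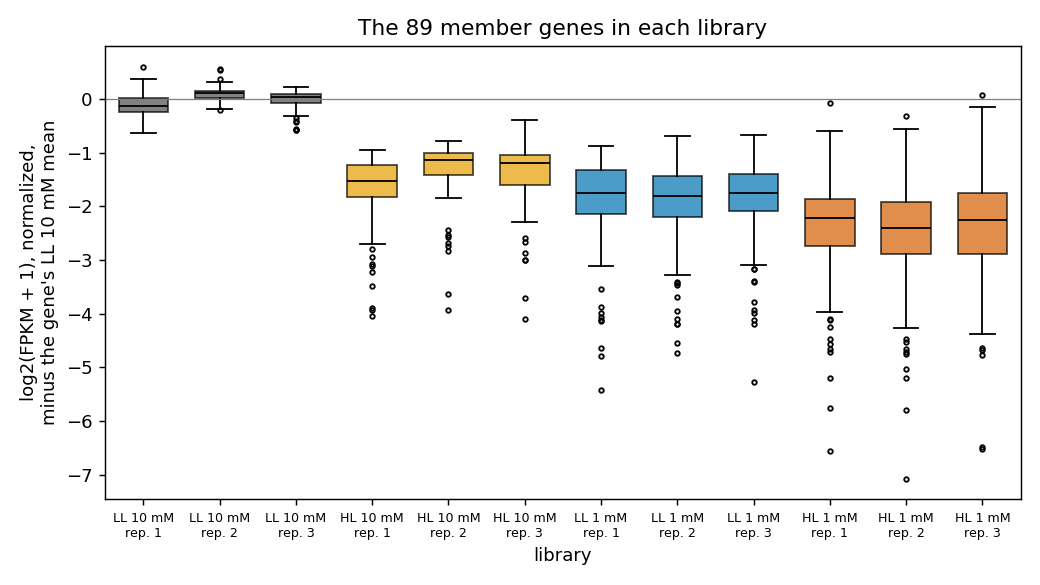
Normalized log2(FPKM + 1) of each of the 89 members minus its LL 10 mM mean (vertical axis) in the 12 libraries (horizontal axis); boxes span the quartiles, the line is the median, whiskers reach 1.5 box heights and circles are members beyond them. Medians lay between −1.14 and −1.52 under high irradiance, −1.75 and −1.80 under low nitrate, and −2.22 and −2.40 under both.

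When high irradiance and low nitrate were combined, nearly all members stayed low. In HL 1 mM the members retained a median of 17.4% of the control level (quartiles 12.1% and 23.5%), and 13 of them less than 5%. Another 6 retained 5 to 10%, 50 retained 10 to 25%, 18 retained 25 to 50% and 2 more than 50%. By limma 84 of the 89 members were lower in HL 1 mM than in LL 10 mM at both thresholds (94.4%, against 4.17% of all genes) and 87 at the adjusted p alone (against 28.8%). No member was higher by limma, also at an unadjusted p under 0.05 (0 members), while 6.52% of all genes were higher at both thresholds and 25% at the adjusted p alone. Every HL 1 mM library lay below every LL 10 mM library for 88 members, which held for 33.9% of all genes. The control libraries of this comparison are those with which the members were chosen, and a choice of high control values pushes it downward, so these counts describe the group. Without quantile normalization 81 members passed both thresholds.

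The combined condition was lower than high irradiance alone for most members. By limma 47 members were at least 2-fold lower in HL 1 mM than in HL 10 mM (52.8%, against 3.65% of all genes) and 71 were lower at the adjusted p alone (79.8%, against 33.2%), while 3 were at least 2-fold higher and 4 higher at the adjusted p alone (against 7.2% and 24.7%). All 3 HL 1 mM libraries lay below all HL 10 mM libraries for 69 members (37.6% of all genes) and above them for 4 (27.3%). The median log2 difference was −1.03 over the members and −0.08 over all genes. Since the members were chosen for low HL 10 mM values, the choice pushes this comparison upward. The rule also took genes that were lower at 1 mM than at 10 mM nitrate in low light, which favors a lower level in HL 1 mM. The 2 parts of the choice were not separated, so these counts describe the group. The size of the falls rested on the normalization, since 22 members were at least 2-fold lower without it and the members' median was then −0.43, beside 0.33 for all genes.

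Against low nitrate alone the further fall was smaller. Of the members, 9 were at least 2-fold lower in HL 1 mM than in LL 1 mM (10.1%, against 0.402% of all genes) and 37 were lower at the adjusted p alone (41.6%, against 2.41%). None was 2-fold higher by limma at an adjusted or an unadjusted p under 0.05, (background 0.275%), and 1 was higher at the adjusted p alone (background 2.82%). All HL 1 mM libraries lay below all LL 1 mM libraries for 53 members (13.4% of all genes). The median log2 difference was −0.53, against 0.00 over all genes, and 79 of the 89 members lay below 0. Both conditions here had 1 mM nitrate, and without quantile normalization 8 members were 2-fold lower and the median was −0.34. The choice of low LL 1 mM values again pushes the comparison upward. The choice of genes that were lower under high irradiance at 10 mM nitrate favors a lower level in HL 1 mM, so these counts too are a description.

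Set against both single stresses at once, the members fell into 4 classes at the adjusted p alone. In HL 1 mM 37 members were lower than in HL 10 mM and lower than in LL 1 mM, a pattern met by 2% of all genes. Another 34 fell below HL 10 mM without passing against LL 1 mM (31% of all genes), 14 passed neither (41.2%) and 4 were higher than in HL 10 mM. By libraries, 51 members had all 3 HL 1 mM values below all 9 others, against 8.25% of all genes, and 75 had their lowest mean in HL 1 mM (34.4%). The count of 37 was 22 without LL 1 mM replicate 1 and 24 without HL 1 mM replicate 2. It was 25 without quantile normalization and 28 with libraries scaled to the same median.

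The 4 classes differed in level. Members lower than both single stresses had a median of 221 normalized FPKM in the control and 83.6 under high irradiance, 60.2 under low nitrate and 37.5 under both. Members lower than HL 10 mM only had medians, in the same order, of 36.4, 13.8, 8.59 and 6.15, and those that passed neither test 13.1, 2.17, 2.28 and 2.42. The class lower than both held 22 of the 30 most abundant members and 4 of the 30 least abundant ones. The median SD between replicates was 0.16 on the log2 scale in that class and 0.24 among the 14 that passed neither, which bears on which genes can pass. What part the level plays in the classes was not tested.

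**Figure D3:**
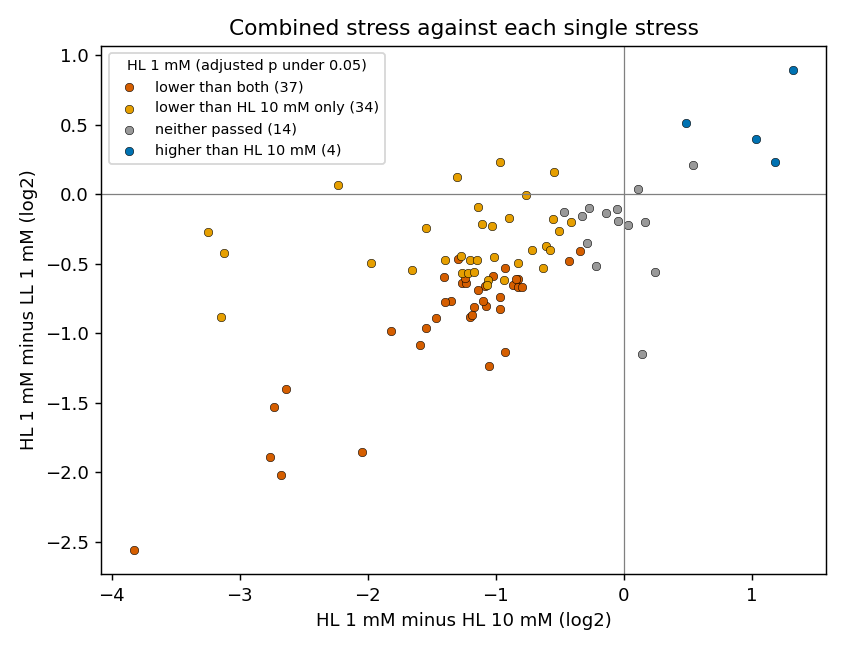
Difference of HL 1 mM from HL 10 mM (horizontal axis) and from LL 1 mM (vertical axis) for the 89 members, in normalized log2 units; colors mark which of the 2 differences passed limma at an adjusted p under 0.05. Of the members, 37 were lower than both, 34 lower than HL 10 mM only, 14 passed neither and 4 were higher than HL 10 mM.

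Between the single stresses, low nitrate gave the lower level for more members. LL 1 mM was lower than HL 10 mM for 45 members at the adjusted p alone (50.6%, against 29.9% of all genes) and at least 2-fold lower for 13 (background 2.29%). HL 10 mM was lower for 3 members (background 21.9%), 1 of them at 2-fold (background 5.8%). The other 41 did not pass. By libraries, LL 1 mM lay wholly below HL 10 mM in 48 members (34.3% of all genes) and wholly above it in 3 (24.3%). The mean levels ran LL 10 mM, HL 10 mM, LL 1 mM, HL 1 mM from high to low in 66 members, an order that 11.5% of all genes had, and LL 10 mM, LL 1 mM, HL 10 mM, HL 1 mM in 9 (1.62%). For the 45 members the median differences from the control were −1.23 under high irradiance, −2.04 under low nitrate and −2.59 under both. For the 3 members lower in HL 10 mM they were −2.18, −1.23 and −1.002. Both conditions were used in choosing the members, so these are descriptions, and without quantile normalization 6 members were at least 2-fold lower in LL 1 mM and 5 in HL 10 mM.

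The fall under combined stress was also set against the sum of the single falls, as a description, since the rule required both single falls and so raised their sum. On the log2 scale the single differences summed to a median of −3.01, and the difference of HL 1 mM from LL 10 mM had a median of −2.29. The interaction term (the difference due to light at 1 mM minus that at 10 mM nitrate) was above 0 in 85 members and below 0 in 4, with a median of 0.72 over the members and −0.03 over all genes. It passed limma at an adjusted p under 0.05 in 39 members upward (43.8%, against 3.1% of all genes), 27 of them by at least 1 on the log2 scale (1.18% of all genes), and in none downward, nor at an unadjusted p under 0.05 (0 members, against 2.37% of all genes at the adjusted p). Of its terms, 3 of 4 come from the libraries that chose the members, and high LL 10 mM with low HL 10 mM and LL 1 mM values push it upward, so nothing is read from the count against its background. Without LL 1 mM replicate 2 the count was 18, and it was 25 without LL 1 mM replicate 1, LL 10 mM replicate 2 or LL 10 mM replicate 3.

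The larger interaction terms were those of members under 1 normalized FPKM in HL 1 mM, while the medians above that level were close (0.70 and 0.63). A value of log2(FPKM + 1) cannot fall below 0. Where the single falls together exceed the control level, the term is thus above 0 whatever the level in HL 1 mM. The number of members for which this held was not counted, so nothing is read from the pattern. Of the 11 members under 1 normalized FPKM in HL 1 mM, 9 had a positive interaction that passed, with a median of 2.00 over the 11. Of the 36 members from 1 to 10 FPKM there were 13, with a median of 0.70, and of the 42 members at 10 FPKM or more 17, with a median of 0.63. When 0.1 was added in place of 1 the interaction passed in 26 members, while its median over the members stayed at 0.72.

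**Figure D4:**
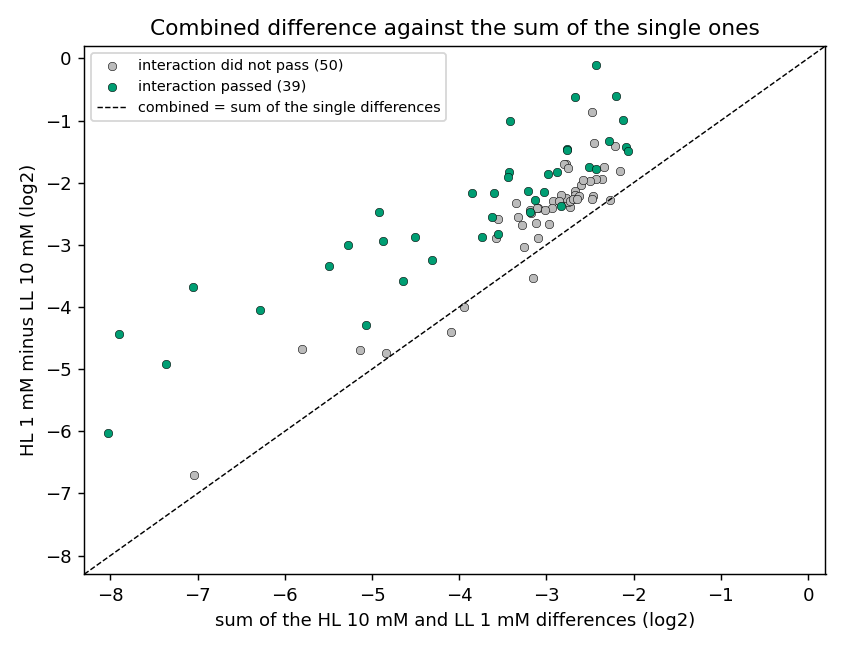
Difference of HL 1 mM from LL 10 mM (vertical axis) against the sum of the HL 10 mM and LL 1 mM differences (horizontal axis) for the 89 members, in normalized log2 units; the dashed line marks equality and green points the 39 members whose interaction passed limma. The points lie above the line for 85 members.

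Cz04g04050 fell furthest of all members, and further in the combined condition than in either single one. Its deposited FPKM was 529, 657 and 649 in the LL 10 mM libraries, 65.2, 102 and 85.7 in HL 10 mM, 39.2, 35.2 and 36.6 in LL 1 mM and 8.21, 5.49 and 9.47 in HL 1 mM. The 4 conditions did not overlap. The normalized log2 difference from LL 10 mM was −4.15 in LL 1 mM (standard error 0.17), and HL 1 mM lay −3.82 from HL 10 mM and −2.56 from LL 1 mM (standard error 0.17 for both). Its interaction was 0.33 (standard error 0.24).

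Cz01g35120 was the next. Its deposited FPKM was 90.3, 83.5 and 67.1 in LL 10 mM, 7.30, 11.6 and 9.14 under high irradiance, 1.45, 3.24 and 2.104 under low nitrate and 1.03, 0.979 and 0 under both. The 4 conditions did not overlap, and 1 library, HL 1 mM replicate 3, was listed at 0. Its log2 differences from LL 10 mM were −2.88 in HL 10 mM and −5.14 in LL 1 mM (standard error 0.24 for both). HL 1 mM lay −0.88 from LL 1 mM (standard error 0.24), which did not pass by limma (adjusted p 0.065). The interaction of Cz01g35120, 2.00 (standard error 0.34), changed to 0.89 (standard error 0.95) with a pseudocount of 0.1. With a pseudocount of 1 its single falls together exceeded its control level, so the term was above 0 whatever the level in HL 1 mM. Both genes were named because they had the largest falls in HL 1 mM among the 51 members whose HL 1 mM libraries lay below all others, so their values are a description.

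A few members had higher levels under combined stress than under a single stress. Only 3 members had every HL 1 mM library above every LL 1 mM library (3.37%, against 13% of all genes), and the 2 with the largest difference were named for it. Cz03g40230 had deposited values of 1.98, 4.39 and 2.83 FPKM in LL 10 mM, 0.414, 0.850 and 0.259 under high irradiance, 1.35, 2.01 and 3.39 under low nitrate and 5.76, 4.73 and 7.38 under both. As deposited, the LL 1 mM values overlapped those of the control, and the HL 1 mM values lay above them. After normalization HL 1 mM lay 0.89 from LL 1 mM on the log2 scale (standard error 0.27), which did not pass by limma (adjusted p 0.089). The normalized level of Cz03g40230 in HL 1 mM was 91.1% of that in LL 10 mM, a log2 difference of −0.11 (standard error 0.27). That difference turned to 0.80 without quantile normalization and to 0.35 with libraries scaled to the same median. Cz03g40230 is the member nearest to the threshold and did not meet the rule without quantile normalization.

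Cz08g15280 had the lowest control level of the members. Its deposited FPKM was 0.538, 0.818 and 1.01 in LL 10 mM, and it was listed at 0 in all libraries of HL 10 mM and of LL 1 mM. In HL 1 mM it was 0.615, 0.695 and 0.655. Listed zeros without counts may be failed estimates, and the HL 1 mM values overlapped those of the control as deposited. It was the member that was higher in HL 1 mM than in both single stresses at the adjusted p. The other 2 members higher in HL 1 mM than in HL 10 mM were better expressed. One had 97.8 normalized FPKM in the control and 30.4 under high irradiance, 47.9 under low nitrate and 63.3 under both, and the other 40.01 in the control and 8.03, 16.4 and 19.5. Without HL 10 mM replicate 1 the number of members at least 2-fold higher than in HL 10 mM was 1 in place of 3.

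**Figure D5:**
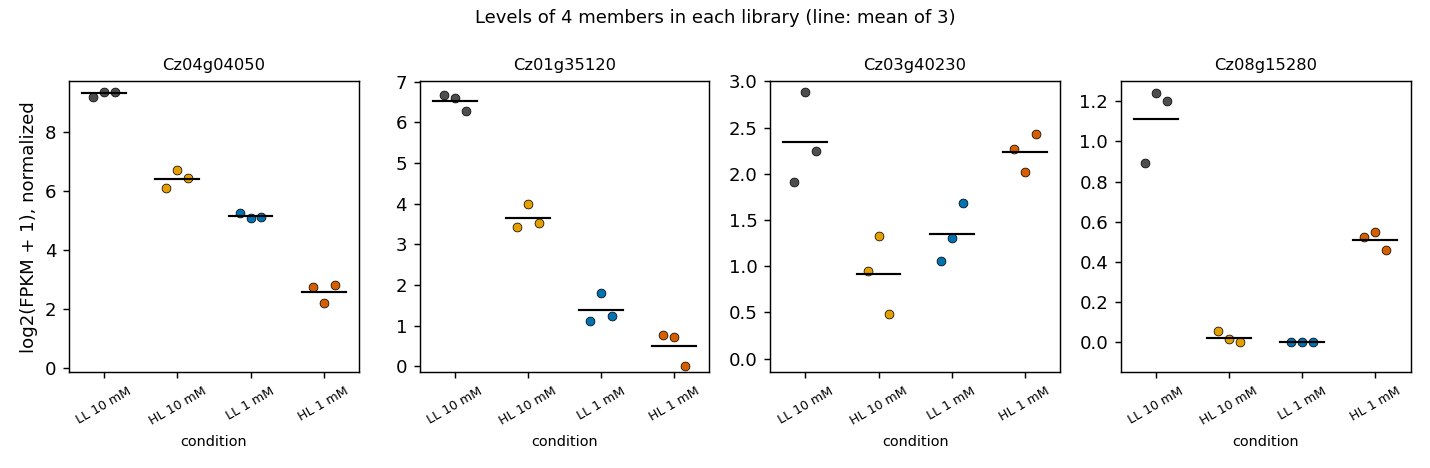
Normalized log2(FPKM + 1) (vertical axes, which differ between panels) of 4 members by condition (horizontal axes); points are libraries and lines are means of 3. The HL 1 mM libraries lay below all others for Cz04g04050 and Cz01g35120, and above those of LL 1 mM and HL 10 mM for Cz03g40230 and Cz08g15280.

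Zeros were few among the members. No member was listed at 0 in a control library. At most 5 members were listed at 0 in any stressed library, the most in HL 10 mM replicate 1. The condition mean was under 1 normalized FPKM for 7 members under high irradiance, 9 under low nitrate and 11 under both.

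Members were spread over the table, and some stood next to each other. IDs of 19 of the 20 leading parts found in the table (Cz01 to Cz19 and UNPL) occurred among them, at 0.363% to 1.36% of the genes tested with each, and Cz15 had 0 members among 534 genes. The table is sorted by ID, and 15 members stood in 7 runs of consecutive rows. In 6 of the 7 runs the differences from LL 10 mM were within 0.5 of each other in every condition, and members that are not neighbors were not compared in this way. The differences were as close as 0.06 in one pair, whose lower and higher levels were 185 and 222 normalized FPKM in LL 10 mM and 65.6 and 82.0 in HL 1 mM. In another pair the lower and higher levels were 76.9 and 82.1 in the control, 18.7 and 20.2 under high irradiance, 8.26 and 9.78 under low nitrate and 1.904 and 2.202 under both. In the run of 3 the differences were up to 1.42 apart. Whether such neighbors are copies that share reads was not tested, since no sequence or annotation was used here, so their values may not be independent.

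Of the genes that met the rule, 6 were left out by its exclusions. One was Cz01g02290, listed by the study as a gene of neoxanthin synthase (NSY), an enzyme of the last steps of the xanthophyll branch. The study lists another NSY gene, whose levels are not given here. Its text reports NSY overexpression upon nitrate stress without saying which gene. Cz01g02290 was lower there, with normalized levels of 31.8, 43.8 and 42.7 FPKM in LL 10 mM and 14.0, 15.4 and 15.9 under low nitrate. Its levels were 15.1, 20.3 and 18.0 under high irradiance and 15.3, 13.6 and 14.8 under both. Its 3 stress conditions overlapped each other and not the control, and HL 1 mM lay −0.05 from LL 1 mM on the log2 scale (standard error 0.13). No other of the 25 carotenogenic genes met the rule. The remaining 5 were among the 100 most abundant genes of the control, with 2614 to 2966 FPKM in LL 10 mM and 83.1 to 209 in HL 1 mM. For these 5 the difference of HL 1 mM from LL 1 mM was −1.58 to −2.33 and the interaction was below 0, at −0.30 to −1.21. By limma it passed downward at an adjusted p under 0.05 in 4 of these 5, so among all genes that met the rule it passed in both directions, and the absence of downward calls holds for the 89 members left after the exclusions.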

How the data were processed

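The authors made stranded mRNA libraries and quantified genes with the MARACAS pipeline (FastQC, HISAT2, StringTie) on the published genome and annotation. The deposited table holds decimal values read as FPKM, 1 column per library, not quantile-normalized and without counts, so counting error is unknown. The study's methods name quantile normalization, 2-fold and an adjusted p of 0.05, which were used here, and the test is not given in the sources used here.

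Fits were made with limma 3.58.1 in R 4.3.3. A pseudocount of 1 was added, genes at 0 in all 12 libraries were dropped, and log2 values were quantile-normalized. A model with the 4 conditions was fitted to 14916 genes with default empirical Bayes moderation, and p-values were adjusted by Benjamini-Hochberg over all of them. A call means an adjusted p under 0.05 and 2-fold, or the adjusted p alone where stated, and the interaction has no fold threshold. Exact permutation of 3 against 3 libraries cannot go below 0.1.

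The members and the lists were chosen with earlier results of these data known. Named were the 2 members with the lowest HL 1 mM difference from LL 10 mM among those whose HL 1 mM libraries lay below all HL 10 mM and LL 1 mM libraries, and the 2 with the highest difference from LL 1 mM among those whose HL 1 mM libraries lay above it. The data used here do not pair IDs with products, so pathway lists were not analysed. Cell type markers do not apply. Alternatives were no or median scaling, a pseudocount of 0.1, a filter at a mean of 1 FPKM, another prior, the replicate number as a block, each library left out, other thresholds and fits with 6 libraries. The steps were tested on simulated data.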

Additional observations from a re-analysis of the deposited data

Results flagged for a closer look

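The interaction of light and nitrate is given as a description, since 3 of its 4 terms are values that chose the members. By limma it passed at an adjusted p under 0.05 in 39 of the 89 members, upward in all of them, and 3.1% of all genes passed upward. Among the named members its log2 value was 2.00 for Cz01g35120 (standard error 0.34), 2.32 for Cz03g40230 (standard error 0.38) and 1.60 for Cz08g15280 (standard error 0.12). In each of these genes the single falls together exceeded the control level of log2(FPKM + 1), which cannot fall below 0. Their terms were thus above 0 whatever the level in HL 1 mM, and nothing is read from their sign. High control and low single-stress values push the interaction upward, and the part of that choice in these values was not tested. Of the 5 abundant genes that met the rule and were left out, 4 passed downward. Groups of 3 libraries were too small to test single libraries as outliers. With each library left out in turn, the interaction passed upward in 18 to 37 members, the fewest without LL 1 mM replicate 2.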

How the results depend on the processing

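Without quantile normalization the rule found 59 genes. Of the 89 members, 22 were then 2-fold lower in HL 1 mM than in HL 10 mM, 1 was higher than in LL 1 mM, and HL 10 mM was lower than LL 1 mM for 5 members and higher for 6. With median scaling 2 members were lower in HL 10 mM than in LL 1 mM, as with a pseudocount of 0.1, where 1 member was 2-fold higher in HL 1 mM than in LL 1 mM. At the adjusted p alone, 71 members were lower in HL 1 mM than in HL 10 mM, 37 were lower and 1 higher than in LL 1 mM, and HL 10 mM was lower than LL 1 mM for 3 and higher for 45. An alternative added after the data were seen kept the main, quantile-normalized fit and took only the 57 members also found without quantile normalization. In that normalized fit 57 were lower in HL 1 mM than in LL 10 mM, 39 were lower than in HL 10 mM and 0 higher. Cz03g40230 turned from −0.11 to 0.80 without quantile normalization and to 0.35 with median scaling in HL 1 mM against LL 10 mM.

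Leaving out each library in turn gave 73 to 103 genes by the rule. It gave 83 to 85 members lower in HL 1 mM than in LL 10 mM, 39 to 51 lower and 1 to 3 higher than in HL 10 mM, 7 to 11 lower than in LL 1 mM and 22 to 38 lower than both single stresses. HL 10 mM was lower than LL 1 mM for 0 to 2 members (0 when HL 10 mM replicate 1 was left out, 2 when HL 10 mM replicate 2 or replicate 1 of LL 1 mM was) and higher for 11 to 16. The interaction passed in 18 to 37, and Cz03g40230 in HL 1 mM against LL 10 mM ranged from −0.32 to 0.16. Causes were not tested.

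Libraries share replicate numbers across conditions, but of 18 pairs with the same number 6 correlated at 0.1 or less in their deviations from the condition means (−0.06 to 0.44), so the numbers were not taken as pairs. 8 of 12 libraries correlated best with their own number. With the replicate number as a block 84 members were lower in HL 1 mM than in LL 10 mM, 47 lower than in HL 10 mM, 10 lower than in LL 1 mM, and the interaction passed in 43. A filter at a mean of 1 FPKM, a trended and robust prior and fits with 6 libraries moved no count of members by over 1.5 times. Depth is unknown, so limits of detection could not be given.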
